A study of Oryza sativa with 10 samples.

Results

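The comparison described here is that of 2 rice (Oryza sativa) lines, S13 and S3, under salt. S13 is labelled salt tolerant, and S3 is the other genotype of the study, labelled susceptible. Its members are 6 of the 10 root libraries of the study, chosen by their labels: 3 libraries of S13 and 3 of S3, from plants that grew for 30 days in normal solution and then spent 12 days in 140 mM NaCl. The other 4 libraries, 2 from each line at 0 mM NaCl for the same 12 days, served to show which line differences were also present without salt. All plants were 42 days old, so that the salt libraries of the lines share age, tissue, dose and duration and differ in genotype. Library totals ran from 22938524 to 25703942 counts, and the files list 38978 genes. Each line is a single genotype. The labels do not give the plants behind each library, so a p-value here covers only the spread from library to library, part or all of which can be technical. No nuclear root marker could be paired with an identifier, and root as the tissue rests on the labels.

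Roots are the organ that meets salt in the solution first. Sodium and chloride lower the water available to the root and enter the plant with the transpiration stream, and rice genotypes are known to differ in how much sodium they keep out of the shoot. Reads were aligned to IRGSP-1.0, the genome of the japonica cultivar Nipponbare. Rice genotypes differ from that reference, and from each other, in which genes they carry and in how far a gene's sequence has diverged. A locus can therefore have 0 counts in a line because it is not transcribed, because it is missing, or because its reads no longer align. Which of these held was not tested. Loci with 0 counts in 1 line are therefore described separately from loci with counts in both.

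Across the 28189 genes with enough counts to be tested, 506 were higher in S13 and 499 were lower in S13 than in S3 under salt. These 1005 calls are 3.57% of the genes tested, with 1.8% higher and 1.77% lower (edgeR quasi-likelihood test, Benjamini-Hochberg adjusted p under 0.05). The difference was at least 2-fold for 994 of them, while over all genes tested the median was 0.03 on the log2 scale. Of the 38978 genes, 31119 had counts in salt libraries of both lines and held 779 of the calls. The other 226 calls were at loci with 0 counts in all 3 salt libraries of 1 line. The total of 1005 rested in part on single libraries: it was 587 without S13 salt replicate 1, 1978 without S13 salt replicate 2, 590 without S3 salt replicate 1 and 530 without S3 salt replicate 2. S13 salt replicate 2 stood farthest from its group, with a mean Pearson correlation of 0.94 with the other S13 salt libraries against 0.962 and 0.946 for those. The biological coefficient of variation was 46.4% among the S13 salt libraries and 35.3% among the S3 salt libraries.

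**Figure D1:**
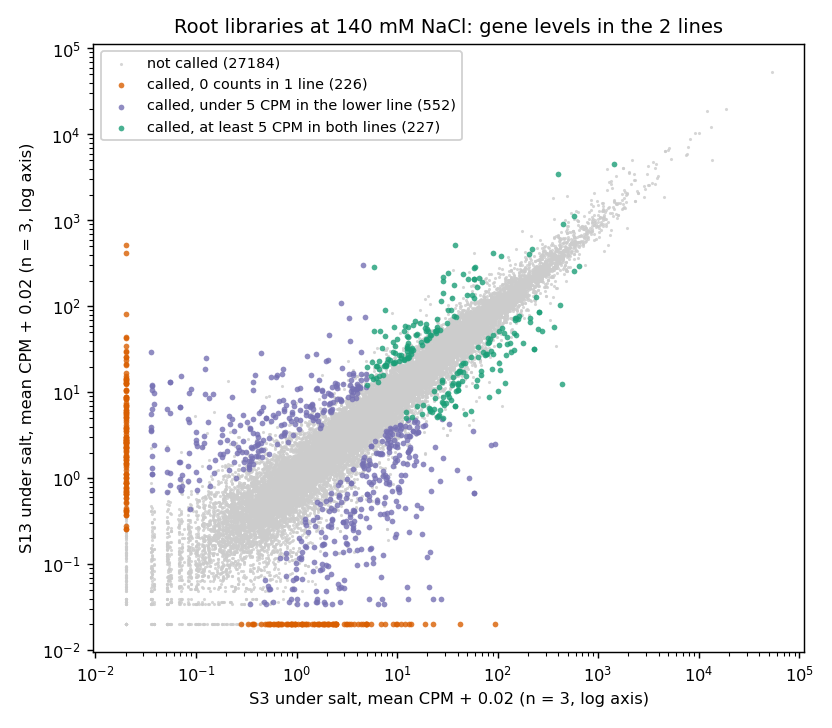
Mean level of each tested gene in 3 S3 salt libraries (x axis) and 3 S13 salt libraries (y axis), as CPM plus 0.02 on log axes; a point at 0.02 on an axis is a gene with 0 counts in that line. Called genes are coloured: 226 with 0 counts in 1 line lie along the edges, 552 had under 5 CPM in the lower line and 227 had at least 5 CPM in both lines.

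The clearest contrast was at loci whose reads came from 1 line alone. Reads in the S13 salt libraries and 0 counts in all 5 S3 libraries, with and without salt, were found at 897 loci. The reverse, reads in the S3 salt libraries and 0 counts in all 5 S13 libraries, was found at 749. Most of these loci were barely detected: 555 of the 897 and 527 of the 749 had 1 to 3 counts in total over the 3 salt libraries of the line with reads. After the filter on low counts 194 and 100 remained, of which 110 and 77 were called. These counts describe loci that passed the filter through the line with reads and had to differ, so they support nothing beyond their own values. A further 647 loci had 0 counts in the S3 salt libraries and at least 1 count in an S3 control, with 93 tested and 21 called, and 617 had the same pattern for S13, with 86 tested and 18 called. In 4949 genes no salt library of either line had a count.

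Levels are given as CPM, counts relative to the TMM-scaled size of the library. RNA came from whole roots, so fewer cells of a type and less RNA per cell cannot be told apart. Together the loci read only in S13 took a small part of the S13 salt libraries, 0.129%, 0.199% and 0.0993% of their counts. The loci read only in S3 took 0.0335%, 0.0345% and 0.0359% of the S3 salt libraries. The shares in S13 lay above those in S3 in every library, with the highest in S13 salt replicate 2. Os06g0147100 and Os06g0146800, described below, held 18460 and 13069 counts in that library. They held 5496 and 6192 counts in S13 salt replicate 1 and 4990 and 4259 in S13 salt replicate 3. Part of the S13 shares, and the first place of replicate 2, came from these 2 loci. Of the 110 called loci read only in S13, 41 reached a mean of at least 5 CPM under salt and 2 of these were over 100 CPM. Of the 77 called loci read only in S3, 13 reached 5 CPM and none passed 100.

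Among the called loci read only in S13, the 2 with the highest levels lay close together on chromosome 6. Os06g0147100 (2457429 to 2458126) is a single-exon locus. In the S13 salt libraries it was at 242, 1067 and 252 CPM and in the S13 controls at 96.1 and 62.3, and all S3 libraries had 0 counts. Os06g0146800 (2449205 to 2449822), also a single exon, was at 272, 756 and 215 CPM in S13 under salt and at 46.9 and 33.2 in its controls, again with 0 counts in S3. For both loci every S13 salt library lay above both S13 controls, and S13 salt replicate 2 was the highest. Against a floor of 3 counts over the S3 salt libraries (0.05 CPM), the salt means were at least 10407-fold and 8287-fold higher in S13. The files do not pair either identifier with a gene name, so no function is given, and this holds for every nuclear locus named here.

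In the opposite direction, among the called loci read only in S3, the pair ranked first by their lowest salt library lay on chromosome 9. Os09g0337300 (10252139 to 10254682) was at 68.3, 136 and 81.4 CPM in the S3 salt libraries and at 22.3 and 19.9 in the S3 controls, with 0 counts in all S13 libraries. Os09g0256700 (4277193 to 4277778) was at 50.7, 41.9 and 33.2 CPM in S3 under salt and at 5.34 and 5.6 in its controls. The S3 salt libraries did not overlap the S3 controls at either locus. Against the floor over the S13 salt libraries (0.0501 CPM) the levels were at least 1896-fold and 836-fold lower in S13.

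Loci with 0 counts under salt that had 1 to 3 counts in the controls of the same line came next. Os06g0355300 (chromosome 6, 14577762 to 14580200) was at 22.6, 61.4 and 20 CPM in S13 under salt, with 1 count in an S3 control and 0 in the S3 salt libraries, at least 693-fold higher. Os04g0113000 (chromosome 4, 793538 to 799310) was at 9.23, 11.9 and 10.7 CPM in S13, again with 1 count in an S3 control, at least 212-fold higher. It shares exon bases with a neighbouring gene, and the reads of the 2 cannot be told apart. Os02g0142800 (chromosome 2, 2369616 to 2371348), the only called locus of this kind with at least 5 CPM in S3, was at 7.56, 9.05 and 6.33 CPM there and had 0 counts in S13 under salt and 3 in its controls, at least 153-fold lower. It too shares exon bases with another gene.

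Most called loci read in 1 line alone were also called without salt. Of the called loci with 0 counts in all S3 libraries, 92 of 110 (83.6%) were also called between the control libraries, where 1.42% of all genes were called. For 0 counts in all S13 libraries this was 60 of 77 (77.9%). The same 0 counts in the controls chose these loci, so the shares are a description. Of the 41 such S13 loci with at least 5 CPM under salt, 39 had at least 1 CPM in the S13 controls, and all 13 such S3 loci did in the S3 controls. The called loci read only in S13 had a single exon in 40% of cases and those read only in S3 in 44.2%, where 25.8% of the called loci with counts in both lines and 24.5% of all genes tested had one. They shared exon bases with another gene in 17.3% and 27.3% of cases, with 32.6% for the called loci with counts in both lines and 32.2% for all genes tested. Their median exon lengths were 1511 and 1273 bases, with 1495 over all genes tested.

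**Figure D2:**
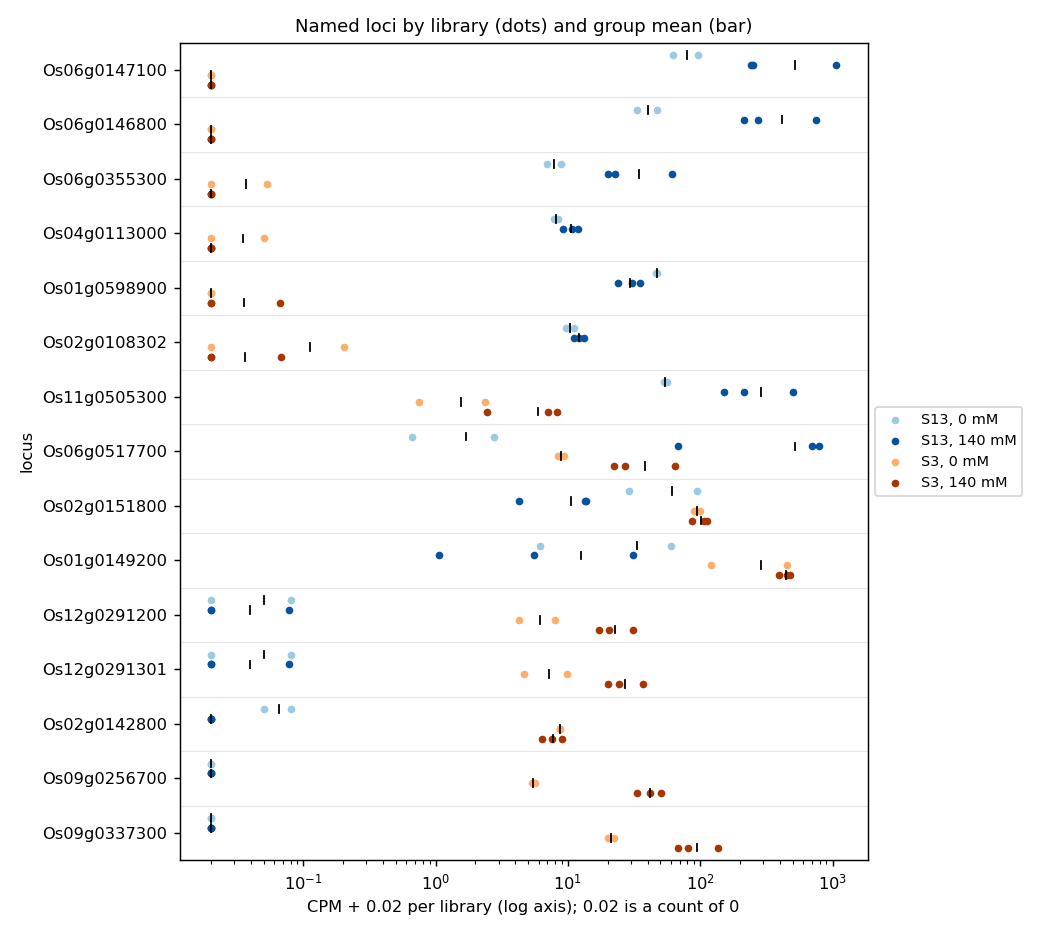
Levels of 15 loci named in the text in each of the 10 libraries (dots, CPM plus 0.02 on a log axis, so that 0.02 is a count of 0) with the group mean (bar), for S13 (blue) and S3 (orange) at 0 and 140 mM NaCl. Os06g0147100 and Os06g0146800 have S13 values from 33.2 to 1067 CPM and no S3 count, and Os09g0337300 and Os09g0256700 have S3 values from 5.34 to 136 CPM and no S13 count.

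Just outside the class of 0 counts lay loci with 1 to 3 counts over the salt libraries of the lower line, 37 of those called higher and 46 of those called lower. Os01g0598900 (chromosome 1, 23530089 to 23532422) was at 30.3, 23.8 and 34.9 CPM in S13 under salt, while the S3 salt libraries together held 1 count. The ratio was 1797, with an exact 95% counting interval of 322 to 71015. Os02g0108302 (chromosome 2, 482360 to 483874) overlaps a further gene and was at 11.0, 12.1 and 13.2 CPM in S13 under salt. The S3 salt libraries held 1 count of it, a ratio of 724 (130 to 28635), and the S3 controls held 6 and 0. The S13 controls also held both loci, at 47.5 and 46.3 CPM for the former and 9.69 and 11.0 for the latter. In the other direction Os12g0291301 (chromosome 12, 11265680 to 11267875) was at 37.2, 20.1 and 24.3 CPM in S3 under salt. The S13 salt libraries held 1 count of it, a ratio of 1651 (296 to 65267), and the S13 controls held 2 and 0. Os12g0291200 overlaps it on the opposite strand and held 30.8, 17.3 and 20.5 CPM in S3, a ratio of 1387 (249 to 54829), so the pair may be 1 signal counted for both. The intervals cover counting error only.

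Among loci with counts in both lines, 375 were higher and 404 lower in S13, with median log2 fold changes of 2.30 and -2.54. The line with less held under 1 CPM at 166 of the higher and 191 of the lower loci, and 1 to 5 CPM at 91 and 104. At least 3 counts in every salt library were present at 285 and 284. These calls moved with single libraries: 779 became 408 without S13 salt replicate 1, 1720 without S13 salt replicate 2, 407 without S3 salt replicate 1 and 359 without S3 salt replicate 2.

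A mean of at least 5 CPM in both lines, with single libraries that could lie lower, was found for 13859 genes, and 227 of them were called (1.64%). Of these 118 were higher in S13, with log2 fold changes from 0.97 to 5.61 and a median of 1.46. The other 109 were lower, from -0.89 to -5.13 with a median of -1.68. The count was 92 without S13 salt replicate 1, 814 without S13 salt replicate 2, and 97, 74 and 151 without S3 salt replicate 1, 2 and 3. It was 552 with DESeq2 and 86 with the salt libraries alone. Calls that held in each of the 6 fits that left out a salt library numbered 53 of 227 (23.3%), 21 higher and 32 lower, with absolute log2 fold changes from 1.26 to 5.61. For loci with 0 counts in 1 line 163 of 226 (72.1%) held in each of these fits, and for loci with under 5 CPM in the lower line 236 of 552 (42.8%). The 226 were chosen for 0 counts in all 3 salt libraries of 1 line. Leaving out 1 library keeps those 0 counts, so their share is a description and does not rank the groups.

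As examples, 4 loci with at least 5 CPM in both lines are given, chosen for their size after their values were seen. Os11g0505300 (chromosome 11, 17985037 to 17986258) was at 213, 503 and 152 CPM in S13 under salt and at 2.44, 7.11 and 8.26 in S3. The lowest S13 library was many times the highest S3 library, and the log2 fold change was 5.61 ± 0.66 (SE; edgeR quasi-likelihood, Benjamini-Hochberg adjusted p = 8.17e-04). The controls showed the same order, with 55.6 and 53.5 CPM in S13 against 0.733 and 2.33 in S3. Os02g0151800 (chromosome 2, 2850259 to 2862114), which has 18 exons, was at 13.5, 4.28 and 13.6 CPM in S13 and at 113, 107 and 86.4 in S3 under salt, a log2 fold change of -3.28 ± 0.51 (SE; edgeR quasi-likelihood, Benjamini-Hochberg adjusted p = 0.00433). In the controls it was at 93.9 and 28.8 CPM in S13 and at 90.0 and 99.8 in S3, so that 1 S13 control lay among the S3 controls. Both loci were called under each of the 15 alternatives run.

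The other 2 depended on the libraries used. Os06g0517700 (chromosome 6, 18955486 to 18956519) was at 697, 68.3 and 795 CPM in S13 and at 27.1, 64.6 and 22.4 in S3 under salt. Both lines held less without salt, 0.642 and 2.72 CPM in S13 and 8.34 and 9.27 in S3. The lines thus stood in the opposite order in the controls, a difference that was not called (edgeR quasi-likelihood, Benjamini-Hochberg adjusted p = 0.51). S13 salt replicate 2 lay just above the highest S3 library. Under salt the log2 fold change was 3.77 ± 0.84 (SE; edgeR quasi-likelihood, Benjamini-Hochberg adjusted p = 0.0326). It was called by 7 of 15 alternatives, with adjusted p from 1.23e-05 to 0.14. Os01g0149200 (chromosome 1, 2665085 to 2668967) was at 31.2, 1.04 and 5.51 CPM in S13 and at 479, 453 and 395 in S3, with a log2 fold change of -5.13 ± 1.18 (SE; edgeR quasi-likelihood, Benjamini-Hochberg adjusted p = 0.0395). The controls were at 6.14 and 60.2 CPM in S13 and at 121 and 451 in S3, so that the groups were in the same order with a wide spread. It was called by 9 of 15 alternatives, with adjusted p from 5.76e-04 to 0.118. Without S13 salt replicate 1, S3 salt replicate 1, S3 salt replicate 2 or S13 salt replicate 3 the adjusted p of Os06g0517700 was 0.0941, 0.14, 0.0659 and 0.0726, and without S3 salt replicate 3 it was 0.115. For Os01g0149200 it was 0.118 without S13 salt replicate 3 and 0.0944, 0.0954 and 0.0735 without S3 salt replicate 1, 2 and 3.

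To see which differences were also there without salt, the lines were compared in the control libraries, which share no library with the salt comparison. Of the 28189 genes 401 (1.42%) were called there, 213 higher in S13 (0.756%) and 188 lower (0.667%). Called in the same direction in both were 338 genes, 184 higher and 154 lower, which is 33.6% of the salt calls and 84.3% of the control calls. Without S3 control replicate 1 or 2 the 338 became 213 and 208. The share differed between groups set by the level in the lower line. It was 104 of 131 higher and 64 of 95 lower calls at loci with 0 counts in 1 line. At loci with under 1 CPM in the lower line it was 55 of 166 and 64 of 191, and at 1 to 5 CPM 12 of 91 and 18 of 104. With at least 5 CPM in both lines it was 13 of 118 and 8 of 109. The size of the fold change also differed between these groups, so level and size were not separated.

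Salt calls at well-read loci mostly had a smaller difference of the same sign in the controls. The 118 higher loci with at least 5 CPM in both lines had a median log2 fold change of 1.46 under salt and 0.79 without salt, and 93 of them (78.8%) kept their sign. For the 109 lower loci the medians were -1.68 and -0.63, with 83 (76.1%) of the same sign. At loci with 0 counts in 1 line the fitted medians, which depend on the prior count and are no bounds, were 9.09 and 9.07 for the higher loci and -8.35 and -8.07 for the lower ones. A selection on the salt values alone makes the salt medians the larger, so the gap is a description.

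**Figure D3:**
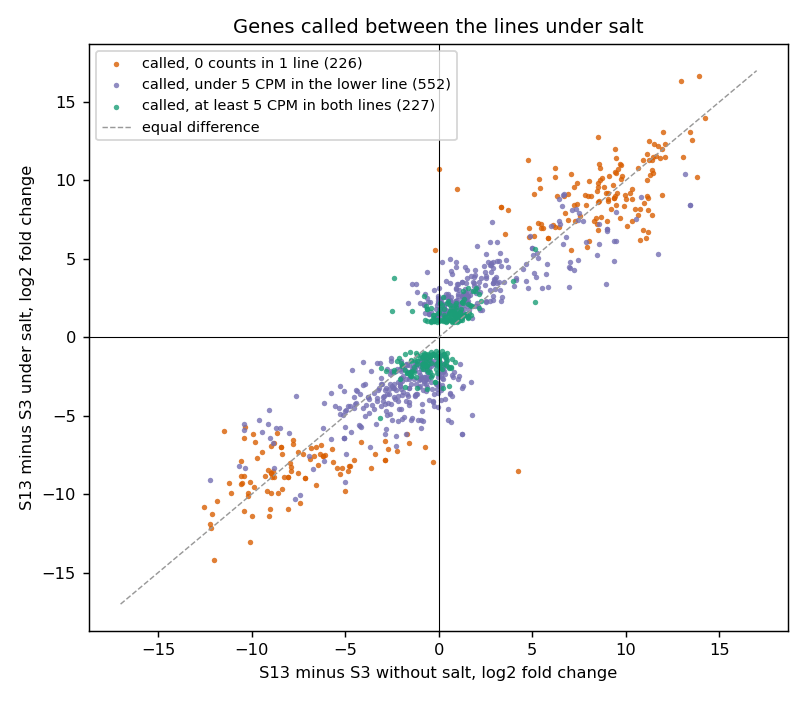
Log2 fold change S13 minus S3 without salt (x axis, 2 against 2 libraries) and under salt (y axis, 3 against 3) for the 1005 genes called under salt, coloured by their level in the lower line; the dashed line marks an equal difference. Loci with 0 counts in 1 line (226) spread along the line, and the 227 loci with at least 5 CPM in both lines lie near the centre.

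Whether the difference between the lines itself changed with salt was tested directly. The test called 0 genes (0%) of 28189 (edgeR quasi-likelihood, Benjamini-Hochberg), with 2435 (8.64%) at an unadjusted p under 0.05; DESeq2 called 140 and limma-voom 0, and 9 were called without S13 control replicate 2 and 3 without S13 salt replicate 2. Of the 1005 salt calls 666 were not called in the controls, yet 544 of these (81.7%) had the same sign there and 304 had an unadjusted p under 0.05 for the change. The same values selected these genes, which favours a low p for the change, so the 304 are a description. None of the 666 can therefore be called particular to salt by the edgeR test.

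A single gene was called in both conditions with opposite signs. Os06g0696500 (chromosome 6, 29137112 to 29138074) was at 18.9, 20.2 and 21.1 CPM in S13 under salt and at 5.12, 6.94 and 6.77 in S3. In the controls S13 was at 0.550 and 1.19 CPM and S3 at 4.43 and 5.4. The S3 values with and without salt lay between 4.43 and 6.94, while all S13 salt values lay above and all S13 control values below that range. The log2 fold change was 1.68 ± 0.30 (SE) under salt (edgeR quasi-likelihood, Benjamini-Hochberg adjusted p = 0.0108). Without salt it was -2.49 ± 0.39 (SE; edgeR quasi-likelihood, adjusted p = 0.00753). The change between them was 4.17 ± 0.49 (SE) on the log2 scale, with an adjusted p of 0.125, the smallest in that test. The calls rested on single libraries: the salt adjusted p was 0.0546 without S3 salt replicate 1, and the control adjusted p was 0.0973 without S13 control replicate 1 and 0.055 without S3 control replicate 2 (edgeR quasi-likelihood, Benjamini-Hochberg).

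Called loci often lay side by side. With 1 gene kept from each set of overlapping genes, 888 of 24246 loci (3.66%) were called, and 246 of the 888 (27.7%) adjoined a locus called the same way. Among the called loci with 0 counts in 1 line this was 81 of 205 (39.5%), and among those with counts in both lines 165 of 683 (24.2%). A neighbour called in the opposite direction was found for 81 of the 888 loci, which made 42 adjacent pairs. It was found for 21 of the 205 loci with 0 counts in 1 line and 60 of the 683 with counts in both. Of the unbroken rows of called loci in 1 direction, 73 held 2 loci, 19 held 3, 8 held 4, 1 held 5 and 1 held 6.

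The row of 6 loci lay on chromosome 6, chr6:2441703-2458126 (16.4 kb). It contains Os06g0147100 and Os06g0146800, the highest in S13 among the called loci read only in that line. Its summed level was 545, 1881 and 513 CPM in the S13 salt libraries and 166 and 113 CPM in the S13 controls. In the S3 salt libraries the sum was 0, 0.222 and 0.0966 CPM, all of it from the fifth locus in order. The first 2 loci were low in S13 as well, with salt means of 2.89 ± 2.20 and 2.59 ± 0.64 CPM (SD, n = 3), while the fourth stood at 13.6 ± 3.68 and the fifth at 25.5 ± 9.66 CPM. Of the 6 loci 5 had 0 counts in S3 under salt, and 5 were also called without salt, all but the first. Of the salt calls 5 held in every fit that left out a salt library.

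**Figure D4:**
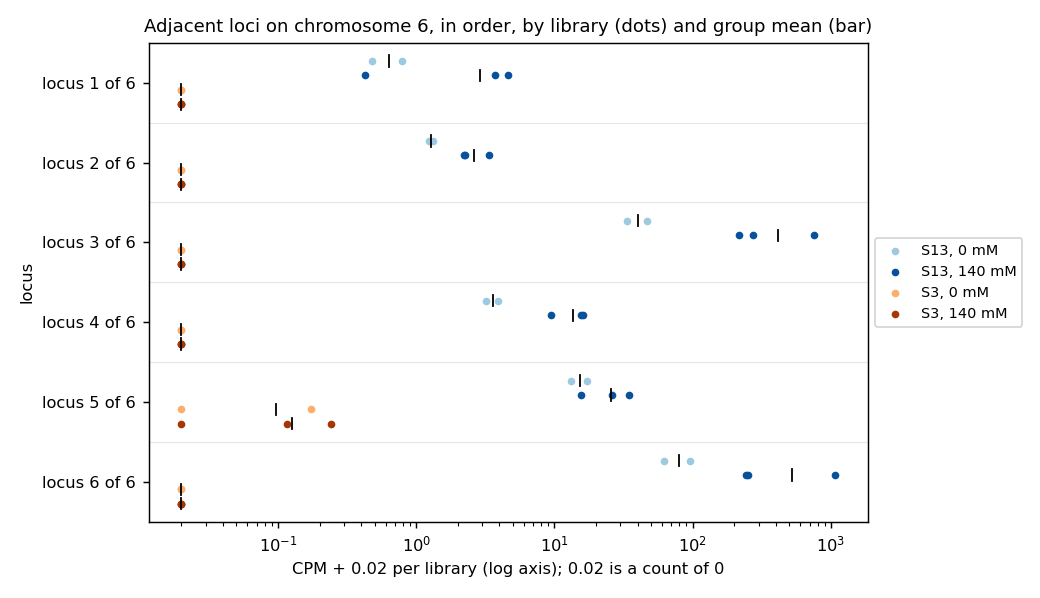
Levels of the 6 adjacent loci on chromosome 6 (in order of position) in each library (dots, CPM plus 0.02 on a log axis, so that 0.02 is a count of 0) with the group mean (bar), for S13 (blue) and S3 (orange) at 0 and 140 mM NaCl. S3 has counts at the fifth locus alone, and the third and sixth loci reach 756 and 1067 CPM in S13 under salt.

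The row of 5 lay on chromosome 3, chr3:295403-337243 (41.8 kb). It held 41.0, 47.2 and 43.1 CPM in the S13 salt libraries and 47.5 and 51.0 CPM in the S13 controls, against 0.0966 to 0.222 CPM in the S3 salt libraries. All 5 loci were called without salt too, and all 5 salt calls held without each salt library. Os03g0104901 (309311 to 314505) and Os03g0105000 (313806 to 315321) overlap in position, so their reads may not be separate. The level in S13 relative to its controls depended on the scaling: scaled by library totals alone, the sums were 37.8, 34.4 and 33.1 CPM under salt against 63.4 and 68.9 without. The rows of 4 that were higher in S13 lay on chromosome 2 (2 rows), chromosome 11 (2 rows) and chromosome 12, and those that were lower on chromosomes 1, 6 and 9. On chr2:6508874-6538109 all 4 loci had 0 counts in S3, and S13 held 25.2, 31.7 and 12.4 CPM under salt and 61.5 and 58.8 without. On chr9:11530868-11576925 the sums in S3 were 15.4, 9.55 and 8.12 CPM under salt and 47.8 and 38.9 without, so that the S3 level was lower under salt, and 2 of the 4 salt calls held in each fit that left out a salt library.

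In 2 of the rows with 4 loci none was called in the controls. On chr2:2972242-3001388 S13 held 15.1, 14.2 and 13.7 CPM under salt, and S3 held 0.939, 0.444 and 0.387. The S13 controls differed from each other, at 1.07 and 14.2 CPM. In this row Os02g0154200 (2978855 to 2982356) lies within the span of Os02g0154100 (2978158 to 2985406), so their reads may not be separate. None of the 4 calls held in every fit that left out a salt library: 0 were left without S13 salt replicate 1 or any of the S3 salt libraries, and 2 without S13 salt replicate 3. On chr6:19569640-19621610 S13 held 40.9, 65.5 and 99.6 CPM under salt and S3 held 265, 248 and 166. The controls had the same order, 48.3 and 49.3 CPM in S13 against 100 and 118 in S3, and most of the sum came from 1 locus of the 4. That locus was not called without S13 salt replicate 1, S3 salt replicate 1 or S3 salt replicate 2, and the other 3 calls held in each of the 6 fits.

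Chromosomes differed in their share of called loci. It was highest on chromosome 6, with 116 of 1981 loci (5.86%), and chromosome 11, with 63 of 1220 (5.16%), and lowest on chromosome 3, with 64 of 3230 (1.98%). On chromosome 12 all 14 called loci with 0 counts in 1 line were read in S13, and on chromosome 9 it was 4 in S13 and 12 in S3. These shares are descriptions, since adjacent loci are not independent.

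**Figure D5:**
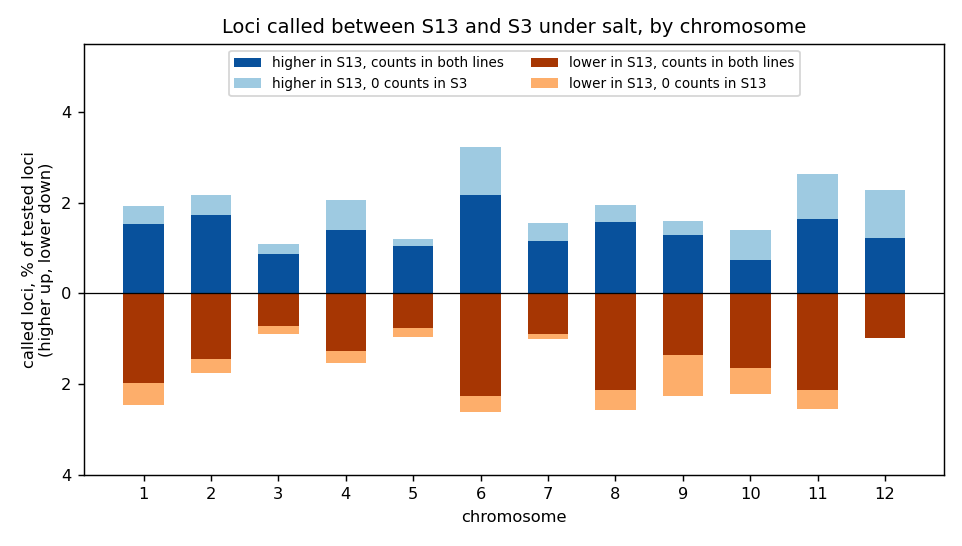
Called loci between S13 and S3 under salt as a percentage of the tested loci of each chromosome, with 1 gene per set of overlapping genes. Bars upward are loci higher in S13 and bars downward loci lower in S13. The pale parts are loci with 0 counts in S3 (upward) or in S13 (downward). Chromosome 6 has the highest share (5.86%) and chromosome 3 the lowest (1.98%).

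The genes that the files name belong to the plastid and the mitochondrion, which carry small genomes of their own. None of the 58 tested plastid genes and none of the 31 tested mitochondrial genes was called between the lines under salt, where 3.57% of all genes were. At 58 and 31 genes a count of 0 is near that background. An unadjusted p under 0.05 was found for 1 and 0 of them, and for 15.7% of all genes tested. DESeq2 and limma-voom also called 0 in each. Photosystem genes encode the protein complexes that capture light. Their summed level was 117, 258 and 229 CPM in S13 and 284, 229 and 377 in S3, so that the lines overlapped. Of the 15 tested, 13 had a negative log2 fold change, with a median of -0.38 against 0.03 over all genes, and this median ran from -0.54 without S13 salt replicate 2 to -0.13 without S3 salt replicate 3. None of the 15 had an unadjusted p under 0.05 (edgeR quasi-likelihood). The share of negative values over all genes is not given, and psbC and psbD share exon bases, so the 13 are a description. The gene psaC, a subunit of photosystem I, was at 1.36, 3.59 and 3.23 CPM in S13 and at 4.93, 4.44 and 4.64 in S3, which do not overlap; its log2 fold change was -0.78 ± 0.47 (SE; edgeR quasi-likelihood, Benjamini-Hochberg adjusted p = 0.468).

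The medians of the other plastid groups leaned the other way or not at all, and 0 of their genes passed. The summed levels of the lines overlapped in each of these groups. The median log2 fold change was 0.40 for 4 genes of the plastid RNA polymerase, 0.47 for 23 ribosomal protein genes, 0.33 for 4 ATP synthase genes and 0.01 for 10 genes of the NDH complex and cytochrome b6f. The gene rps12, of the small ribosomal subunit, was at 9.85, 15.4 and 14.9 CPM in S13 and at 8.45, 5.39 and 4.98 in S3, with a log2 fold change of 1.09 ± 0.46 (SE; edgeR quasi-likelihood, Benjamini-Hochberg adjusted p = 0.271). Its S13 and S3 libraries did not overlap, as at psaC, and neither gene was called. The share of all tested genes without overlap is not given here, so this is a description. Mitochondrial respiratory chain genes had a median of -0.04 over 13 genes, and ribosomal protein and cytochrome c maturation genes -0.05 over 10.

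Of 949 genes with noncoding RNA identifiers 239 were tested and 3 called, 1 higher and 2 lower in S13. This is 1.26%, against 3.57% over all genes tested. ENSRNA049471602 (chromosome 1, 23323571 to 23323888) was at 0.572, 0.520 and 0.202 CPM in S13 and at 5.54, 4.89 and 5.90 in S3, a log2 fold change of -3.64 ± 0.42 (SE; edgeR quasi-likelihood, Benjamini-Hochberg adjusted p = 7.16e-04). It was lower in S13 without salt as well, at 2.05 and 1.25 CPM against 11.6 and 9.47. ENSRNA049470806 (chromosome 2, 31813012 to 31813173) overlaps a further gene and was at 1.28, 1.56 and 1.21 CPM in S13 and at 0.329, 0.278 and 0.338 in S3. ENSRNA050013643, a locus on the plastid genome, was at 0.440, 0.694 and 0.505 CPM in S13 and at 5.87, 0.667 and 12.2 in S3, so that the lines overlapped. The calls at these last 2 were lost without S13 salt replicate 1, S13 salt replicate 3, S3 salt replicate 1 or S3 salt replicate 3, which left 1 call in each case.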

How the data were processed

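Total RNA of roots was sequenced in 10 libraries. The authors deposited raw read counts per gene, not normalized, with gene coordinates, per the file headers. The submitters' processing notes name the build IRGSP-1.0 and the tools HISAT2, featureCounts, Trimmomatic, FastQC and DESeq2, with version, settings and strand mode not given in the sources used here. Groups came from titles: S13 salt and S3 salt (n = 3 each), S13 control and S3 control (n = 2 each). In R 4.3.3, edgeR 4.0.16 fitted 4 group means to all libraries after filterByExpr, which removed 10789 of 38978 genes, and TMM scaling, whose factors were 0.729 to 0.922 in the salt and 1.31 to 1.42 in the control libraries, so that levels compared across conditions depend on this scaling. A gene was called where the adjusted p (Benjamini-Hochberg) was under 0.05; SE is the absolute log2 fold change over the square root of F. A floor of 3 counts over 3 salt libraries is 0.05 CPM in S3 and 0.0501 in S13. Floors and intervals (95%) cover counting error only. Chi-square per degree of freedom between libraries of 1 group was 36.9 to 224, so no library was taken as a repeat of another. No column of another sample was present.

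The members and gene lists were chosen with earlier results of these data known. Named nuclear loci are the first 2 per class and direction among called loci with at least 5 CPM in the higher line and no overlap of salt libraries, ranked by the lowest library of the higher line (0 counts in 1 line) or by fold change; 4 loci with at least 5 CPM in both lines and Os06g0696500 were added after their values were seen. The reference table (ASM3414082v1) paired 1 of 38756 nuclear identifiers with a name, so lists by product (salt transport, stress, defence) could not be used, and only organelle and noncoding RNA lists were. For list members the 4 with the smallest adjusted p could be named. Alternatives were DESeq2 1.42.0, limma 3.58.1 (voom), other scalings and filters, the salt libraries alone, a replicate block, 1 gene per set of overlapping genes (overlap of 0.5 of the exon bases of the shorter gene) and leaving out each library; for rows of adjacent loci and Os06g0696500, leaving out libraries and scaling by totals were added after the data were seen.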

Additional observations from a re-analysis of the deposited data

How the results depend on the processing

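No gene named in the text changed the sign of its log2 fold change in the settings run. The median over all genes tested, 0.0285, was -0.0235 with library totals and -0.0219 without S13 salt replicate 2. The 1005 calls (506 higher, 499 lower) became 634 (329 and 305) with a filter of at least 5 CPM in 2 libraries, 634 (312 and 322) with the salt libraries alone and 1893 (971 and 922) with DESeq2. They ranged from 530 to 1978 when 1 salt library was left out, with 246 to 1106 higher and 284 to 872 lower. Calls at loci with 0 counts in 1 line, 226, were 91 with the 5 CPM filter, and 171 to 258 when 1 salt library was left out. Calls with counts in both lines, 779, were 1616 with DESeq2, 459 with the salt libraries alone and 359 to 1720 when 1 salt library was left out. The 338 calls shared with the controls were 215 with the 5 CPM filter, 559 with DESeq2 and 208 to 393 when 1 library was left out. The 0 genes whose line difference changed with salt were 140 with DESeq2 and 0 to 9 when 1 library was left out. The cause of these changes was not tested, except that the filter and the smaller fits use fewer genes or libraries.

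With a replicate block 838 genes were called. Same-numbered salt libraries of the lines had correlated deviations of -0.049, 0.266 and 0.0192, and S13 replicate 1 correlated best with S3 replicate 3 (0.289), so the numbers were not taken to pair the samples. The share of calls higher in S13 was 50.3% and ran from 46.4% to 55.9%. Without TMM factors 960 genes were called, 450 higher and 510 lower, and with limma-voom 450 were higher and 497 lower. Loci under the floor of 3 counts limit what a count of 0 can show.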
